A study of Mus musculus with 12 samples.

Results

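Elf5, Ehf, Elf3, Kit, Aldh1a3, Gata3, Sox9 and Grhl2 are 8 genes used to describe luminal progenitor cells and the alveolar side of the mammary epithelium. They were chosen as a list of named luminal fate regulators and progenitor genes, by a rule that sets no threshold on measured values but with earlier results of these data known, and matched to the deposited Ensembl gene IDs by mouse symbol. All 8 were found among 55487 IDs, and all 8 passed the filter on low counts, which left 18647 genes for testing. Each was also described relative to Epcam, a cell adhesion molecule of epithelial cells, because a whole fat pad holds more or less epithelium from pad to pad.

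The libraries came from mammary glands of female C57BL/6 mice, an inbred strain with no transgene named in the labels. Tissue was taken at postnatal day 84, 4 weeks after folic acid supplementation, and the sample titles carry the word juvenile. The higher-dose group, 6 libraries, received folic acid at 5 mg/kg, and the lower-dose group, also 6 libraries, received it at 1 mg/kg. Folic acid is the synthetic form of the vitamin folate, and no group without folic acid was analysed here. The right thoracic pad was used whole, so the RNA is a mixture of fat, epithelium, vessels, nerve, muscle and immune cells. The labels do not say whether the libraries of a group come from separate animals. In such bulk RNA, fewer cells of a type and less RNA per cell cannot be told apart.

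Mammary ducts have an inner luminal layer and an outer basal layer. Luminal cells include hormone-sensing cells, which carry the estrogen receptor, and progenitor cells, which largely lack it and give rise to the milk-producing alveoli of pregnancy. Gata3 encodes a zinc finger transcription factor needed for luminal differentiation, and Elf5 encodes an ETS factor that directs progenitors towards the alveolar fate downstream of prolactin signalling. Ehf and Elf3 encode related epithelial ETS factors, and Kit and Aldh1a3 are widely used marks of luminal progenitors. Sox9 encodes an HMG-box factor linked to stem and progenitor states, and Grhl2 encodes a grainyhead factor that maintains epithelial junctions.

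Depth was 48.2 to 75.3 M (mega) gene-assigned reads per library, and 39.2% to 59.5% of these came from the mitochondrial ribosomal RNA genes. Levels are given as CPM, counts per 1 M gene-assigned reads after scaling by the trimmed mean of M-values (TMM). The 10 luminal reference genes, Epcam among them, were detected in every library, as was the basal set Krt5, Krt14, Krt17, Trp63 and Oxtr, so the labelled tissue carried its defining epithelial markers. Other tissues varied: summed markers of T cells ranged from 4.96 to 407 CPM, of B cells from 2.97 to 723 CPM and of fibroblasts from 973 to 3523 CPM. Epidermal markers summed to 145.6 CPM in replicate 4 and 20.8 CPM in replicate 2 of the 5 mg/kg group, and to at most 4.28 CPM in the other libraries. Some of these marker levels also entered the fits as covariates. Beyond those fits and the values given beside each result, the part of these tissues in the results on the 8 genes was not tested.

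Promoter sequence from RefSeq (GRCm38.p6) was at hand for 4 of the 8 genes, Elf5, Elf3, Kit and Gata3, and for Epcam. For Ehf, Aldh1a3, Sox9 and Grhl2 none is printed. The stretches are shown because the set holds both ETS factors, which bind a GGAA core, and a GATA factor, which binds a GATA core, while the 8 genes moved together across libraries. Capitals mark these 2 cores on either strand, so that TTCC is the ETS core and TATC the GATA core read from the other strand. Each stretch is the part of the 250 bases before the start site that lies outside annotated exons, 5′ to 3′ on the gene's strand. The stretches lie at chr2:103423818-103424061 (plus strand, Elf5, the downstream of its listed starts), chr1:135258569-135258722 (minus, Elf3), chr5:75574737-75574915 (plus, Kit), chr2:9878601-9878850 (minus, Gata3) and chr17:87635729-87635978 (plus, Epcam).
Elf5: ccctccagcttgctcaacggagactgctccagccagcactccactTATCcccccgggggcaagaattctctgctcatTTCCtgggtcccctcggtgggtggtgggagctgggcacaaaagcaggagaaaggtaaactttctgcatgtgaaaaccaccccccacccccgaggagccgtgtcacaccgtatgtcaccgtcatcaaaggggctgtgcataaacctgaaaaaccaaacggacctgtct
Elf3: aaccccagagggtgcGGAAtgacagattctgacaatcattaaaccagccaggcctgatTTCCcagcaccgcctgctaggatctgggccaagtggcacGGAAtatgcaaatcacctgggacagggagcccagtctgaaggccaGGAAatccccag
Kit: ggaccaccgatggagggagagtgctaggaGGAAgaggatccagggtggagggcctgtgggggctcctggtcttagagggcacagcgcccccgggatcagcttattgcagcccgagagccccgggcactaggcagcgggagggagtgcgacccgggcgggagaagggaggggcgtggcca
Gata3: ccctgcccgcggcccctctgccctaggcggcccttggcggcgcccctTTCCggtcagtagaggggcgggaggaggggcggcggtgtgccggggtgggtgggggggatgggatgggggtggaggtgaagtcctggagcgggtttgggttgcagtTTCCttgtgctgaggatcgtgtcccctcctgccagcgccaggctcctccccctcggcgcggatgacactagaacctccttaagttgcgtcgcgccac
Epcam: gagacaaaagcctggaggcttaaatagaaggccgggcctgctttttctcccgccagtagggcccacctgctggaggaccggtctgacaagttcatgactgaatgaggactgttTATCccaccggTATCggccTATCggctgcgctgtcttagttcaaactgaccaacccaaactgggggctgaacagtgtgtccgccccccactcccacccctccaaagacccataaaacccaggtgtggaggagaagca
The Elf3 stretch of 154 bases held 4 ETS cores and the Gata3 stretch 2, while those of Elf5 and Kit held 1 each and that of Epcam none. The Epcam stretch held 3 GATA cores and that of Elf5 held 1. No match overlapped another. Such short cores are frequent: among 32851 upstream windows of 250 bases, 93.4% held an ETS core and 53.6% a GATA core, and in stretches placed as that of Elf3 82.5% held an ETS core. A grainyhead match AACNNGTT and a STAT match TTCNNNGAA, searched on both strands, were in none of these stretches and in 3.64% and 7.02% of all windows of 250 bases. These shares are of windows with at least 1 match, and how many windows hold several was not computed. A match is only a run of letters, and binding was not measured.

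Elf5 and Ehf are neighbours on chromosome 2 (GRCm38, also called mm10). Elf5 (ENSMUSG00000027186) lies on the plus strand at chr2:103411688-103450989 and Ehf (ENSMUSG00000012350) on the minus strand at chr2:103263433-103303278. They are transcribed away from each other. The gap of 108 kb between their outermost annotated starts holds 3 annotated genes, 0 of them protein coding. The Elf5 stretch printed above precedes a start further downstream. Kit (ENSMUSG00000005672, chr5:75574916-75656722), Aldh1a3 (ENSMUSG00000015134, chr7:66390890-66427517) and Sox9 (ENSMUSG00000000567, chr11:112782224-112787760) overlap no other annotated gene. Exons of Elf3 (ENSMUSG00000003051, chr1:135253575-135258568) overlap the antisense gene Gm26642, and exons of Grhl2 (ENSMUSG00000022286, chr15:37233036-37363569) overlap the antisense gene Gm16136. Exons of Gata3 (ENSMUSG00000015619, chr2:9857078-9890034) overlap Gm13256 on the other strand and 9230102O04Rik on the same strand. The library kit does not mark strand, and how reads in these overlaps were counted is not known. Counts of Elf3, Gata3 and Grhl2 are therefore uncertain by those reads.

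Per kilobase of exon, the members fell into 3 ranges of level. Kit, Ehf, Gata3 and Aldh1a3 had mean levels of 4.11, 4.09, 3.92 and 3.26 CPM per kb over the 12 libraries, Elf3 had 1.73, and Elf5, Sox9 and Grhl2 had 0.971, 0.944 and 0.580. Epcam, at 20.5 CPM per kb, was above Kit in 12 of 12 libraries. Aldh1a3 was above Elf3, Elf3 above Elf5, and Sox9 above Grhl2 in 12 of 12 libraries each. Neighbours inside the upper range did not separate, since Kit was above Ehf in 7, Ehf above Gata3 in 7 and Gata3 above Aldh1a3 in 8 of 12 libraries, and Elf5 was above Sox9 in 6.

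The question of the design is whether the mammary transcriptome differed between the 2 folic acid doses. None of the 8 genes differed between the doses beyond the spread between libraries. In edgeR's quasi-likelihood test with Benjamini-Hochberg adjustment over all 18647 genes, 0 of 8 members passed an adjusted p of 0.05, against a background of 0 genes called, or 0.0%. Without adjustment, 359 genes, 1.93% of those tested, had a p under 0.05, and no member was among them. With DESeq2 1 gene was called, the epidermal gene Dmkn, and with limma-voom 0, with 535 and 360 genes at an unadjusted p under 0.05. The adjusted p of the members ran from 0.943 to 0.953. The point estimates of 7 members lay below 0, with a median log2 fold change of -0.20 against -0.02 for all tested genes, but the members' median was 0.01 with limma-voom. With library size alone as the scaling, the median over all genes moved by -0.14. Non-overlapping groups occurred for 8 genes, 0.0429% of those tested, and for no member.

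Among the alveolar and related ETS factors, Elf5 was at 1.41 CPM in the lowest, 5.62 in the median and 16.1 in the highest library at the lower dose, and at 2.39, 3.78 and 7.67 CPM at the higher dose. The groups overlapped across the whole higher-dose range, and both the highest and the lowest library belonged to the lower-dose group, replicates 2 and 5. The means were 6.85 ± 5.03 and 4.56 ± 1.93 CPM (SD, n = 6 each), and the log2 fold change was -0.59 ± 0.46 (SE) with a 95% interval from -1.59 to 0.42 and an adjusted p of 0.943 in edgeR. Ehf was at 11.2, 25.5 and 59.6 CPM in the lowest, median and highest library at the lower dose and at 6.89, 18.5 and 27.7 CPM at the higher dose. Replicate 2 of the lower-dose group stood far above the other 11 libraries and replicate 5 of the higher-dose group below them, and the remaining libraries of both groups were intermixed. The log2 fold change of Ehf was -0.55 ± 0.40, interval -1.42 to 0.32. Without that replicate 2 the log2 fold changes were -0.11 for Elf5 and -0.13 for Ehf. Elf3 lay between 1.14 and 9.81 CPM at the lower dose and between 1.84 and 6.17 CPM at the higher dose, with a log2 fold change of -0.22 ± 0.47. Its group medians, 2.96 and 2.84 CPM, were nearly the same.

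Of the progenitor marks, Kit, the receptor for stem cell factor, had the most reads of the 8, between 1031 and 3893 per library. It was at 17.6, 36.7 and 65.4 CPM in the lowest, median and highest library at the lower dose and at 26.7, 33.7 and 48.5 CPM at the higher dose. The higher-dose libraries lay wholly inside the lower-dose range, and the log2 fold change was -0.10 ± 0.29 with an interval from -0.73 to 0.52. Aldh1a3, which makes retinoic acid from retinaldehyde, was at 6.41, 14.1 and 23.4 CPM at the lower dose and at 10.8, 15.2 and 22.7 CPM at the higher dose. It was the only member with a positive estimate in the edgeR test, 0.15 ± 0.29, interval -0.47 to 0.78. The groups again covered each other.

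The lineage factors overlapped between the groups in the same way. Gata3 was at 5.49, 13.7 and 29.1 CPM in the lowest, median and highest library at the lower dose and at 7.77, 14.4 and 20.7 CPM at the higher dose, with a log2 fold change of -0.15 ± 0.37. Sox9 ranged from 0.753 to 9.54 CPM (54 to 568 reads) around a median of 4.35 at the lower dose, and from 2.44 to 6.42 CPM around 2.88 at the higher dose, with a log2 fold change of -0.26 ± 0.47. Grhl2 ranged from 0.878 to 11.9 CPM around 4.39 at the lower dose and from 2.33 to 7.54 CPM around 3.96 at the higher dose, with a log2 fold change of -0.18 ± 0.50. For all of these genes the higher-dose libraries fell within the range of the lower-dose libraries, whose replicate 2 was highest and replicate 5 lowest. Epcam itself was highest and lowest in the same libraries, from 13.4 to 88.4 CPM at the lower dose and from 20.3 to 66.9 CPM at the higher dose, with a log2 fold change of -0.13 ± 0.42. The sign of the estimate turned to positive with limma-voom for Kit, Gata3, Sox9, Grhl2 and Epcam.

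**Figure D1:**
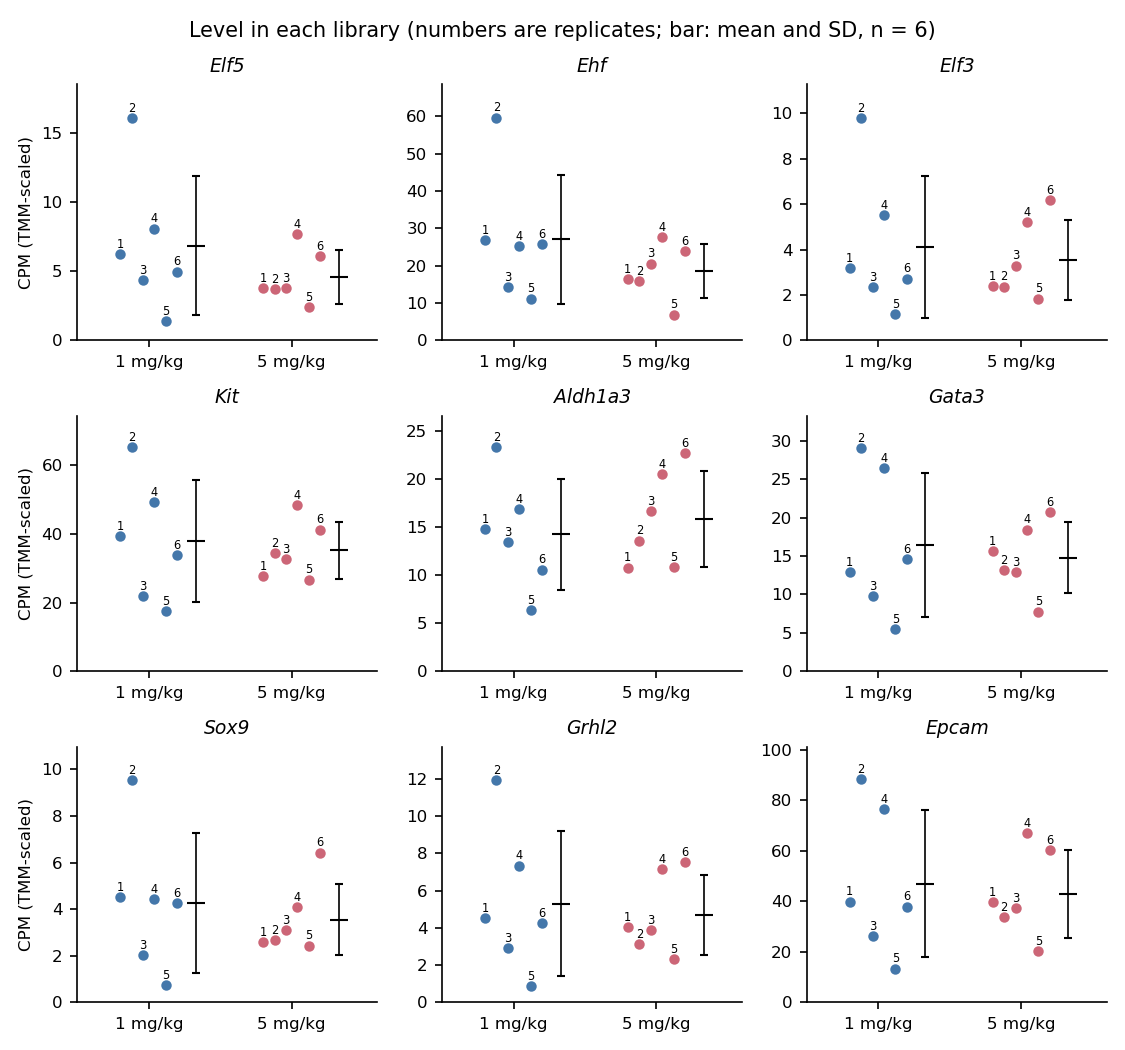
Level of the 8 genes and Epcam in each library, in TMM-scaled CPM on a linear axis from 0, with 1 mg/kg in blue and 5 mg/kg in red; numbers are replicates and the bar gives the mean and SD (n = 6). Replicate 2 at 1 mg/kg is highest in all 9 panels, and replicate 5 of either group is lowest in each of them.

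**Figure D2:**
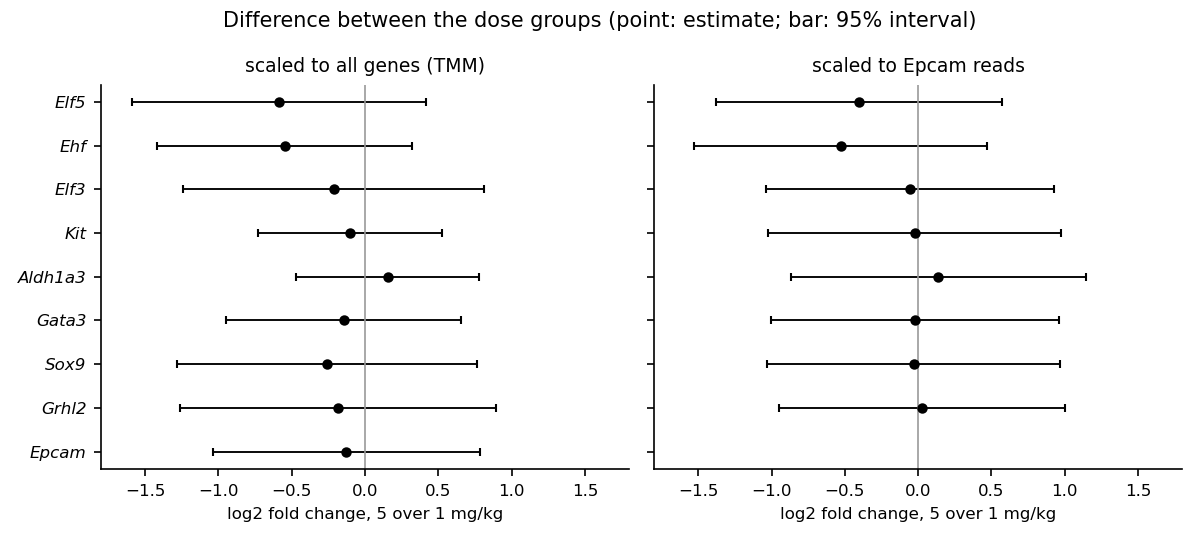
Log2 fold change of 5 over 1 mg/kg for each gene in the edgeR fit, scaled to all genes on the left and to Epcam reads on the right; points are estimates and bars 95% intervals. Every interval includes 0.

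The spread between libraries was wide and shared. From the lowest to the highest library, Grhl2 varied 13.6-fold, Sox9 12.7-fold, Elf5 11.4-fold, Ehf 8.66-fold, Elf3 8.58-fold, Epcam 6.62-fold, Gata3 5.29-fold, Kit 3.73-fold and Aldh1a3 3.65-fold. Over the 12 libraries the 28 pairs of members had Pearson correlations of log2 CPM from 0.70 (Aldh1a3 with Ehf) to 0.96 (Elf3 with Grhl2), with a median of 0.91. These points share library, depth and scaling and are given as a description.

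To describe that shared variation, each gene was fitted on the log2 level of Epcam with the dose group in the model. A slope of 1 means proportion to Epcam, and a slope of 0 means no relation to it. All 8 members had a positive slope past an adjusted p of 0.05 in edgeR's quasi-likelihood test, where 840 of 18646 genes, 4.5%, had one and 25, 0.134%, had a negative one. The median slope of all genes was -0.01. The steepest were Grhl2 at 1.19 ± 0.10 (SE), Elf5 at 1.07 ± 0.10, Elf3 at 1.04 ± 0.11 and Sox9 at 1.02 ± 0.17, whose 95% intervals all include 1. Gata3 at 0.86 ± 0.06 shared the smallest adjusted p of all genes, 4.86e-05, and its interval of 0.73 to 1.00 reached just under 1. Ehf had a slope of 0.85 ± 0.13, interval 0.57 to 1.13.

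Kit and Aldh1a3 had the shallowest slopes of the 8. That of Kit was 0.62 ± 0.08 with an interval from 0.45 to 0.79, and that of Aldh1a3 0.59 ± 0.10 with an interval from 0.37 to 0.81, so both lay below 1. In this fit, libraries with more Epcam RNA had less Kit and Aldh1a3 RNA per Epcam read. Mast cells and melanocytes also carry Kit. The 9 mast cell markers had slopes with a median of -0.22, and 0 of 9 passed. Their sum ranged from 44.6 to 122 CPM at the higher dose and from 23.4 to 105 CPM at the lower dose. Replicate 5 of the higher-dose group, with the second lowest Epcam level, had the highest sum and 132 Kit reads per 100 Epcam reads. Replicate 5 of the lower-dose group, with the lowest Epcam level, had a sum of 63.3 CPM and 131 such Kit reads. Replicate 3 of the lower-dose group had a sum of 105 CPM and 83.4 such Kit reads. The melanocyte markers summed to between 0.700 and 1.93 CPM. The fibroblast markers were lowest in replicates 5 and 6 of the lower-dose group. The part of these cells in the slopes was not tested.

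The calls depended on the libraries at the ends of the Epcam range. Without replicate 5 of the lower-dose group, which has the lowest Epcam level, 265 genes were called and the adjusted p of Aldh1a3 and Sox9 rose to 0.0957 and 0.0731 in edgeR, with slopes of 0.52 and 0.82, while the other 6 members still passed. Without that library and replicate 2 of the lower-dose group, which has the highest level, 40 genes were called, among them Elf5, Gata3 and Grhl2, with slopes of 0.81, 0.84 and 0.97. The slopes of the other 5 members were then 0.80 (Ehf), 0.96 (Elf3), 0.53 (Kit), 0.47 (Aldh1a3) and 0.65 (Sox9), with adjusted p from 0.0538 to 0.470 in edgeR. That last setting was chosen after seeing the data. No slope differed between the dose groups in a test of the difference itself, with 0 genes called and an adjusted p of 1 for each member.

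**Figure D3:**
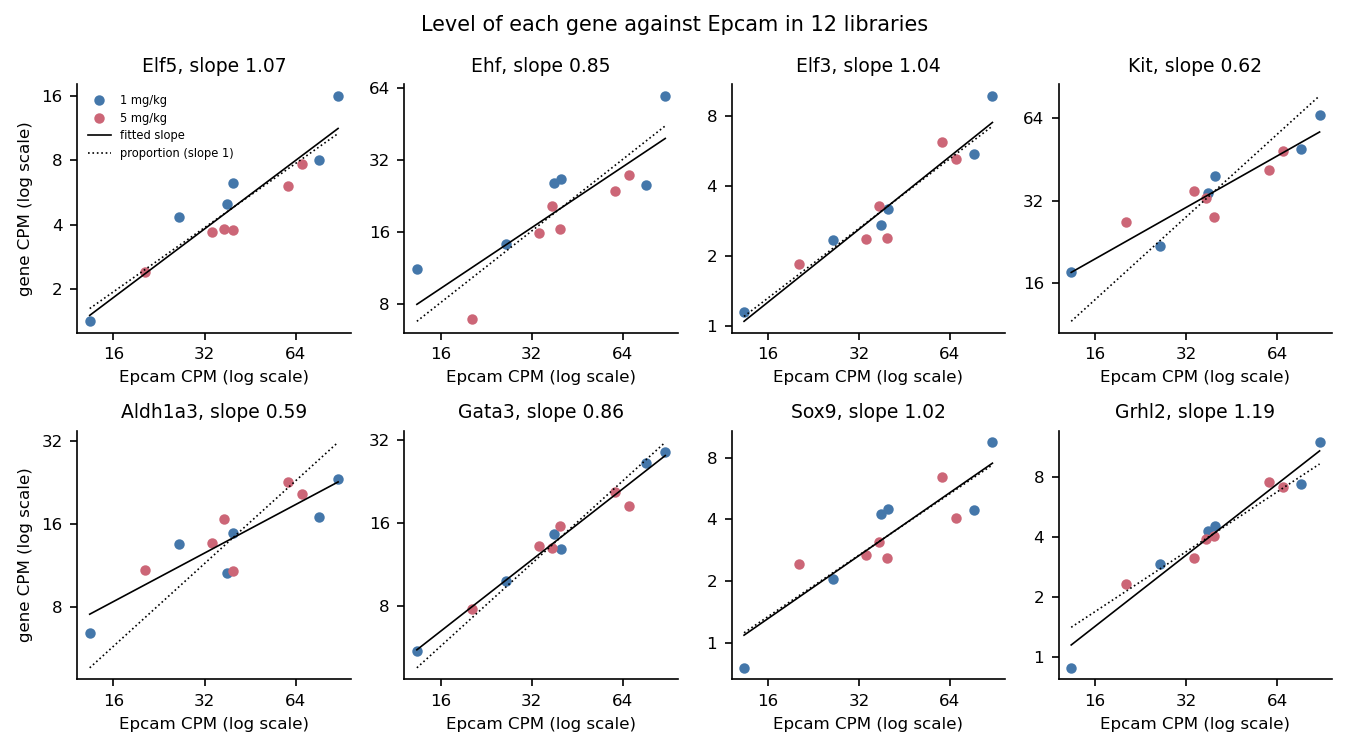
Level of each gene against Epcam in the 12 libraries, both in CPM on log axes, with 1 mg/kg in blue and 5 mg/kg in red. The solid line has the fitted slope and the dotted line a slope of 1; Kit and Aldh1a3 rise less steeply than the dotted line, while Elf3 and Sox9 follow it.

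Per Epcam read, the levels became much more even. The within-group SD fell from 0.73 for log2 CPM to 0.17 for the log2 ratio to Epcam for Gata3, from 0.91 to 0.25 for Elf5, from 0.89 to 0.26 for Elf3 and from 1.01 to 0.27 for Grhl2. It changed least for Aldh1a3, from 0.55 to 0.43, and for Kit, from 0.55 to 0.37. Ehf went from 0.78 to 0.37 and Sox9 from 0.95 to 0.43.

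Elf5 had 10.5, 14.4 and 18.2 reads per 100 Epcam reads in the lowest, median and highest library at the lower dose and 9.51, 10.5 and 11.8 at the higher dose. The higher-dose libraries lay close together, 4 of the 6 lower-dose libraries were above all of them, and 3 of the 6 higher-dose libraries were below all lower-dose ones. The means were 14.1 ± 3.20 and 10.7 ± 0.881 (SD, n = 6 each), a difference of -0.38 in the mean log2 ratio with p = 0.0346 in a two-sided exact permutation test that ran through 924 assignments of the libraries. This p was 1 after Benjamini-Hochberg adjustment over the exact permutation tests of all 18646 genes. Of those genes 59, or 0.316%, had an exact p under 0.05, and 19, or 0.102%, had one with a lower ratio at the higher dose. These shares cover all genes, most of which did not rise with Epcam, so that their ratios carry its within-group SD of 0.84. They do not show how rare such a p is among epithelial genes, for which no share was computed. The smallest p these group sizes allow is 0.00216. Over 18646 tests, an adjusted p under 0.05 would need many genes at that floor at once. The adjusted value therefore could not single out any gene and decides nothing about Elf5. This limit holds for all 8 members.

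Ehf had 32.9, 67.3 and 83.6 reads per 100 Epcam reads in the lowest, median and highest library at the lower dose and 34.0, 41.4 and 55.2 at the higher dose. Here too 4 of 6 lower-dose libraries were above all higher-dose ones, but replicate 4 of the lower-dose group was the lowest of all 12. The means were 62.1 ± 17.1 and 43.0 ± 7.22 (SD, n = 6 each), a log2 difference of -0.49 with an exact permutation p of 0.0541, also 1 after adjustment over all genes. In the edgeR fit with Epcam reads as the offset, 0 of 8 members and 0 of 18646 genes (0.0%) passed, and 94 genes, 0.504%, had an unadjusted p under 0.05, none of them a member. The log2 fold changes there were -0.40 ± 0.48 for Elf5 and -0.53 ± 0.50 for Ehf, with an adjusted p of 1.00 each. Over the 8 members the SE of this offset fit ran only from 0.48 (Grhl2) to 0.50 (Aldh1a3). The within-group SD of their log2 ratios ran from 0.17 (Gata3) to 0.43 (Aldh1a3). The offset fit thus did not follow each member's own spread, and its wide intervals decide little about members with even ratios. With Epcam as a covariate in place of the offset, Elf5 and Ehf had log2 fold changes of -0.40 and -0.51 in edgeR. Their unadjusted p in that edgeR fit was 0.0206 and 0.0212, and the adjusted p 0.913 each. By p they ranked 154 and 162 of 18646 genes, and the share of all genes under 0.05 was not computed there.

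The size of the Elf5 difference varied less across alternatives than its p, which lay on both sides of 0.05. With Krt8, Krt18, Cdh1 or Cldn3 as the reference the log2 difference was -0.46, -0.48, -0.41 and -0.34, and the exact permutation p was 0.130, 0.0519, 0.0736 and 0.169. Without replicate 2 of the lower-dose group the difference was -0.30 with p = 0.0584 in the exact permutation test, and over all libraries left out singly it lay between -0.45 and -0.30. In all, the p of Elf5 was over 0.05 in 11 of 21 alternatives, and that of Ehf was under 0.05 in 5 of 21. The share of all genes under 0.05 was not computed for these alternatives. For Ehf the difference lay between -0.66 and -0.39 without single libraries, with an exact permutation p from 0.00649, without replicate 4 of the lower-dose group, to 0.104, without its replicate 5.

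The other 6 members did not differ between the doses per Epcam read beyond their spread, and their groups overlapped. Gata3 was the most even, at 36.1 ± 3.46 reads per 100 Epcam reads at the lower dose and 35.6 ± 4.50 at the higher dose (SD, n = 6 each), with all 12 libraries between 27.5 and 41.1. Grhl2 was at 10.6 ± 2.32 and 10.8 ± 1.11, Elf3 at 8.49 ± 1.46 and 8.16 ± 1.52, and Sox9 at 8.76 ± 2.69 and 8.59 ± 2.32 (SD, n = 6 each). Kit was at 90.3 ± 23.5 and 88.9 ± 24.7, and its highest values, 131 and 132, came from replicate 5 of each group, the libraries with the lowest Epcam level. Aldh1a3 was at 35.5 ± 12.1 and 39.1 ± 9.55. The exact permutation p of these 6 ran from 0.491 for Aldh1a3 to 0.985 for Sox9, and the adjusted p was 1 for each.

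**Figure D4:**
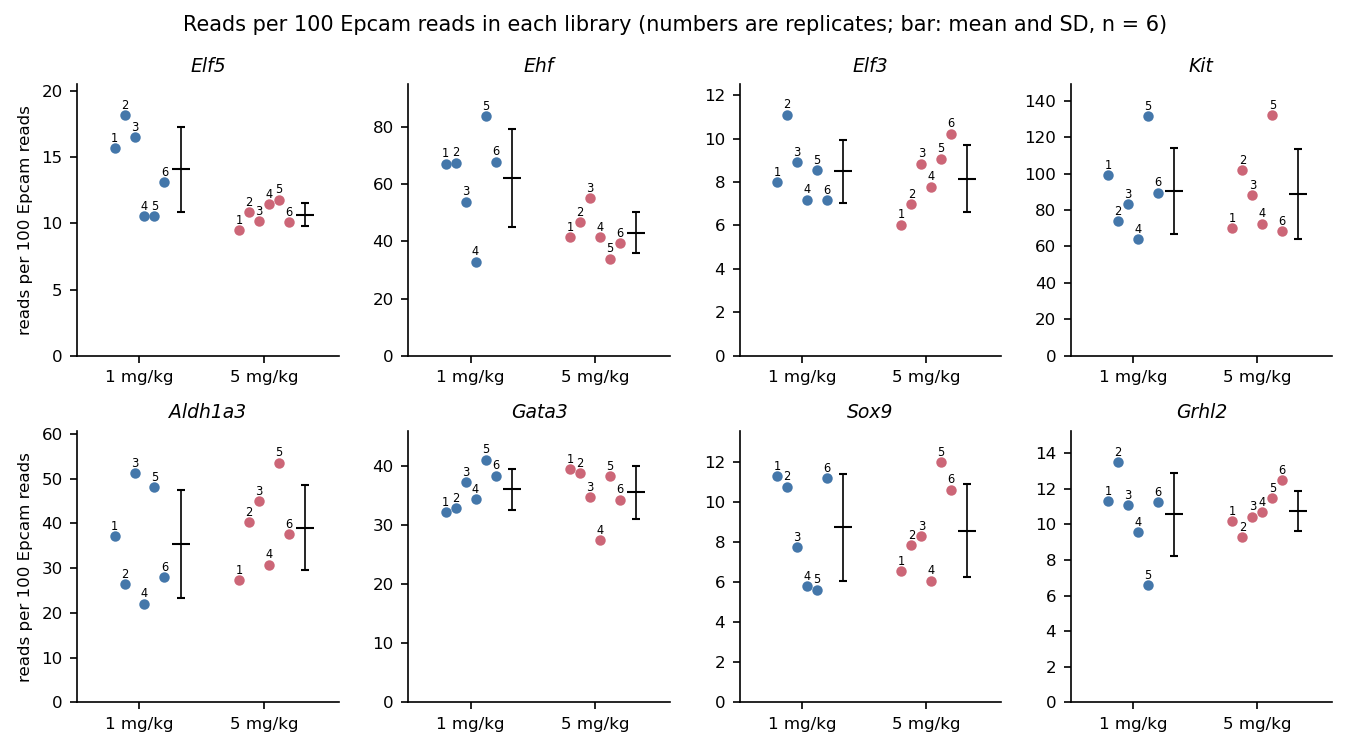
Reads of each gene per 100 Epcam reads in each library, on linear axes from 0, with 1 mg/kg in blue and 5 mg/kg in red; numbers are replicates and the bar gives the mean and SD (n = 6). The Elf5 values at 5 mg/kg sit between 9.51 and 11.8, with 4 of 6 values at 1 mg/kg above them.

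The genes most like each member over the 12 libraries, by Pearson correlation of log2 CPM among 14069 genes with a mean of at least 1 CPM, are given next. Predicted or unnamed gene models were passed over, which skipped 1 gene in the third place for Gata3 and 1 for Sox9, so that Esrp1 and Grhl2 there ranked 4. For Elf5 they included the mucin gene Muc15 (0.98) and Kcnk1 (0.97), a potassium channel, and for Ehf they were Lrrc75b (0.98), Eya2 (0.96) and Gprin3 (0.96). For Elf3 they were Sh3bp4 (0.98), Klc3 (0.98) and Inhbb (0.98), an inhibin subunit. For Gata3 they were Cdcp1 (0.99), Epcam (0.99) and Esrp1 (0.98), an epithelial splicing regulator. For Grhl2 they were Chmp4c (0.99), Tmem184a (0.99) and Galnt3 (0.99), and for Sox9 Mpzl1 (0.98), Trpm6 (0.97) and Grhl2 (0.96). For Kit they were Plpp2 (0.97), Lamb3 (0.97), a laminin subunit, and Slc5a1 (0.97), a glucose transporter. The nearest to Aldh1a3 were Mmp14 (0.95), Ltbp1 (0.95) and Myof (0.94), of which the first is a matrix metalloproteinase and the second a latent TGF-beta binding protein. With 12 points that share library and depth these values are a description only.

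Wider lists of mammary genes place the 8 in context, and in the dose comparison 0 genes of any list passed. Of 16 other luminal progenitor genes 2 had a higher and 14 a lower estimate at the higher dose, with a median log2 fold change of -0.15 that was negative under every scaling tried. The median over all tested genes was -0.02. Some marker lists of other tissues lay wholly on the same side of 0. All 9 T cell and all 7 B cell genes had lower estimates, with medians of -0.61 and -0.58. All 7 adipocyte and all 5 fibroblast genes had higher ones, with medians of 0.33 and 0.51. The part of these tissues in the split of the progenitor genes was not tested. Estimates within these and the following lists share the same 12 libraries and are not independent. How such splits change without single libraries was not examined. Of the 16 progenitor genes Slpi, a secreted protease inhibitor, had the smallest p. Its log2 fold change was -0.89 ± 0.50, with an adjusted p of 0.943 in edgeR. In the slope fit 8 of the 16 rose with Epcam, among them the lipocalin Lcn2 at 0.93 ± 0.11, Plet1 at 0.93 ± 0.11, the whey acidic protein relative Wfdc18 at 1.21 ± 0.21 and Kitl, the ligand of Kit, at 0.40 ± 0.09. Trf, the transferrin gene and the most abundant of this list, did not pass, at 0.34 ± 0.16.

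Of 13 genes of the prolactin, RANK and STAT5 pathways that act on alveolar fate, 3 had higher and 10 lower estimates at the higher dose, with a median of -0.20. Only Prlr, the prolactin receptor, rose with Epcam, at a slope of 0.96 ± 0.12 and an adjusted p of 0.000656 in edgeR. It was at 314 ± 202 CPM at the lower dose and 257 ± 95.4 CPM at the higher dose (SD, n = 6 each), with a log2 fold change of -0.29 ± 0.43. Socs2, a feedback inhibitor of STAT5, was at 16.8 ± 6.00 and 11.2 ± 4.69 CPM (SD, n = 6 each), with a log2 fold change of -0.58 ± 0.29 and an adjusted p of 0.943 in edgeR. Of 9 milk genes 4 were tested, and Csn3, a casein, and Btn1a1, butyrophilin, rose with Epcam at 0.91 ± 0.19 and 0.96 ± 0.23. Glycam1, the most abundant of this list, at -4.36 ± 2.39, and Xdh, at 0.30 ± 0.14, did not pass. Glycam1 ranged from 0.806 to 519 CPM. The 7 B cell genes had a median slope of -3.80, with 0 past the threshold. The part of tissues other than epithelium in the Glycam1 level was not tested, so it is not read here as milk gene expression.

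Other epithelial genes rose with Epcam as the members did. All 9 luminal reference genes other than Epcam passed with slopes between 0.75 (Muc1) and 1.18 (Cldn4). Of 10 epithelial regulators 7 passed, among them Grhl1, a relative of Grhl2, at 0.83 ± 0.09 and Esrp1 at 1.08 ± 0.07. Of 10 hormone-sensing genes 4 passed, Foxa1 at 1.32 ± 0.21, Prom1, Spdef and Tbx3, while Esr1, the estrogen receptor, at 0.44 ± 0.13, and Pgr, the progesterone receptor, at 0.65 ± 0.26, did not. Of 5 basal genes 4 passed, from Trp63 at 0.64 ± 0.14 to Krt5 at 1.35 ± 0.16. A positive slope was thus found for luminal and for basal genes, and differences between these lists were not tested. In the dose comparison the estimates split 2 higher and 8 lower for the luminal genes, 4 and 6 for the epithelial regulators, 4 and 6 for the hormone-sensing genes and 3 and 2 for the basal genes, with medians whose sign changed between scalings.

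In the families of the members, 2 of 20 other ETS genes and 3 of 13 other GATA and SOX genes tested rose with Epcam, where 4.5% of all genes did. The ETS genes were Spdef at 0.97 ± 0.18 and Ets2 at 0.27 ± 0.07, and Ets1, the most abundant of them and a lymphocyte-rich member of the family, did not, at -0.86 ± 0.51. The others were Sox10 at 0.89 ± 0.11, Sox4 at 0.42 ± 0.10 and Sox13 at 0.41 ± 0.09. Of 5 fibroblast and 5 epidermal genes tested, Col1a1, a collagen, at 0.69 ± 0.16 and Lgals7, a galectin, at 1.30 ± 0.28 passed. T cells and type 2 innate lymphoid cells also carry Gata3. The 9 T cell genes had a median slope of -2.44 with 0 of 9 past the threshold. Among 13 retinoid genes those that passed included Crabp2, at 1.27 ± 0.25, and Rarg, at 0.34 ± 0.07, whereas Aldh1a1, the most abundant retinaldehyde dehydrogenase gene of the list, did not, at -0.01 ± 0.21. In the dose comparison 7 ETS genes had higher and 13 lower estimates, against 9 and 4 for the retinoid genes, and none passed.

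**Figure D5:**
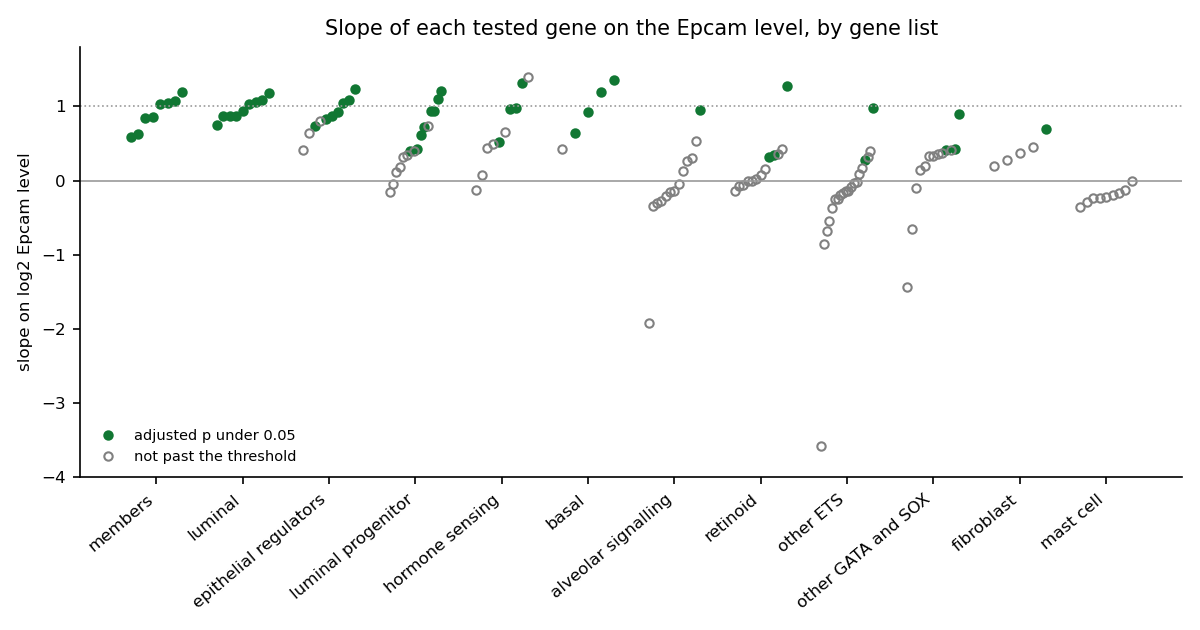
Slope of each tested gene on the log2 Epcam level in the edgeR fit, grouped by gene list, where filled points passed an adjusted p of 0.05 and open points did not; the dotted line marks a slope of 1. All 8 members and all 9 luminal reference genes are filled, while 0 of 9 mast cell genes are.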

How the data were processed

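RNA was measured in 12 libraries from whole mammary fat pads, 6 per dose, after TruSeq v2 library preparation, which takes polyadenylated RNA without marking strand. What the authors deposited are raw counts of reads per gene. The tools were STAR on mm10 and HTSeq 0.6.1, per the submitters' processing notes. The STAR version, annotation and strand setting were not given in the sources used here. The 5 tally lines of each file, 16.7% to 35.7% of reads, stayed out of library sizes and tests. Symbols and coordinates came from GENCODE release M21 (55227 IDs matched, 260 did not) and promoters from RefSeq.

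Genes were filtered with filterByExpr and tested with edgeR 4.0.16 (R 4.3.3), using TMM scaling, robust quasi-likelihood F tests and Benjamini-Hochberg adjustment over all tested genes with 0.05 as the threshold. The dose was fitted over all 12 libraries without covariates, then with Epcam counts as the offset. Slopes used group plus log2 CPM of Epcam. Ratios to Epcam, with 0.5 added to each count, were compared by exact permutation. CPM per kb divides by the union of exon lengths. Alternatives used DESeq2 1.42.0, limma 3.58.1 (voom), other scalings, filters, references, covariates and left-out libraries. On simulated counts with a log2 change of 1 the dose test recovered 40% of 100 changed genes, and of 2, 84%. The changed genes were drawn from all genes of at least 1 CPM, so these shares are not those of the members. The 95% intervals of the dose test had a median half-width of 0.53 over all genes. Those of the members were wider, from -0.47 to 0.78 for Aldh1a3, the narrowest, and from -1.26 to 0.90 for Grhl2, the widest.

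Named were the 8 members, Epcam, the 3 genes most like each member, and from each list the gene with the smallest dose p, the most abundant one and those past the threshold. Some genes named by this rule are not reported here. Lists without genes of their own named in the report (Schwann, endothelial, adipocyte, brown fat, skeletal muscle, cartilage, B cell, melanocyte and type 2 lymphoid genes) had 0 genes past the threshold in the dose comparison or in the slope. The rule for the members uses no measured value, but members and lists were chosen with earlier results of these data known, and which of the named genes appear was chosen after seeing values. Replicate numbers follow record order. The labels do not say that libraries are separate animals, so p-values measure the spread between these samples, which may be technical. Among 30 pairs within groups the lowest chi-square per degree of freedom was 41.7, so none matched within sampling noise.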

Additional observations from a re-analysis of the deposited data

Results flagged for a closer look

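The Ehf level of replicate 2 at 1 mg/kg, 59.6 CPM, stood apart from the other 5 libraries of its group by Dixon's criterion at the 95% level. It was the 1 value among 34 groups of 6 values looked at, and chance marks about 5% of such groups. Without this library the log2 fold change of Ehf in the dose comparison was -0.13, against -0.55 with it, and did not pass in edgeR in either case. Per 100 Epcam reads the same library had 67.5 Ehf reads, close to its group's median of 67.3.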

How the results depend on the processing

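No paired analysis was possible because the labels give the dose groups no shared replicate numbers. The dose comparison called 0 genes under every setting run except DESeq2, with 1, and per Epcam read 0 genes under every setting; no member passed in either. Elf5, Ehf and Aldh1a3 kept their direction in all settings of the dose and per-Epcam fits, though not their size. With limma-voom the log2 fold change turned to 0.0035 for Kit, 0.012 for Gata3, 0.041 for Sox9, 0.11 for Grhl2 and 0.026 for Epcam. With sample quality weights it was 0.19 for Gata3, 0.16 for Grhl2 and 0.13 for Epcam. With Epcam as covariate it was 0.036 for Grhl2. With the epidermal marker level as covariate it was -0.79 for Elf5, -0.69 for Ehf and -0.30 for Epcam. For Elf5 it was -0.57, -0.56 and -0.63 with the T cell, B cell and skeletal muscle level. Leaving out single libraries gave ranges of -0.80 to -0.11 for Elf5, -0.71 to -0.13 for Ehf, 0.0040 to 0.37 for Aldh1a3, -0.45 to 0.27 for Elf3, -0.25 to 0.14 for Kit, -0.33 to 0.12 for Gata3, -0.52 to 0.18 for Sox9, -0.40 to 0.26 for Grhl2 and -0.32 to 0.17 for Epcam. Per Epcam read the ranges were -0.13 to 0.036 for Elf3, -0.053 to 0.043 for Gata3, -0.077 to 0.11 for Grhl2, -0.17 to 0.12 for Kit and -0.15 to 0.056 for Sox9, and Grhl2 was at -0.012 with 6 luminal genes summed and at -0.023 with Krt8 as offset.

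Against 865 genes with a slope on Epcam, 2001 were called with library size alone and 265 to 1440 without single libraries, lowest without replicate 5 and 377 without replicate 2 at 1 mg/kg, highest without replicate 5 at 5 mg/kg. Among settings chosen after seeing the data, 1620 were called with the share of reads outside genes as covariate, 4115 with skeletal muscle as covariate and 40 without the libraries with the highest and the lowest Epcam level. In the ratio to Epcam 1 member, Elf5, had an exact permutation p under 0.05, where 59 of 18646 genes, 0.316%, had one. With 6 luminal genes summed, with Krt19 and with Cldn7 as reference, 2 members, Elf5 and Ehf, were under 0.05. With Krt8, Cdh1, Krt18 and Cldn3 0 were, and without single libraries 0 to 2. No share over all genes was computed for these other settings, so their counts cannot be weighed against a background. Log2 differences changed sign for Grhl2 with Krt8 (-0.032), Krt18 (-0.047) and Cldn7 (-0.029), and with Cldn3 for Kit (0.0043), Gata3 (0.0047) and Sox9 (0.021). Without the libraries with the highest and the lowest Epcam level, a setting chosen after seeing the data as were Krt18, Krt19, Cldn3 and Cldn7 alone, the dose log2 fold change of Elf3 was 0.050 and the log2 differences to Epcam were 0.047 for Elf3, 0.056 for Kit and -0.0095 for Grhl2. Without single libraries they ranged from -0.13 to 0.021 for Elf3, -0.15 to 0.089 for Kit, -0.058 to 0.046 for Gata3, -0.12 to 0.081 for Sox9 and -0.074 to 0.13 for Grhl2. The cause of these changes was not tested. Depth limits Sox9 and Grhl2 most, with 54 and 63 reads in their lowest libraries.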
